A study of Mus musculus with 8 samples.

Results

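The genes described here are 10 immediate-early and stress response genes, Fos, Jun, Junb, Egr1, Atf3, Ier2, Gadd45b, Gadd45g, Klf10 and Sgk1, out of 21887 protein-coding genes on the nuclear chromosomes. They were chosen by name, as genes known to respond early to growth factors, hormones or stress, with earlier results of these data known, and none of the 10 was missing from the annotation. The measurement was RNA polymerase II (Pol II) ChIA-PET in livers of wild-type C57BL/6 mice aged 3 to 6 months, fed freely in a light-dark cycle. In this assay, crosslinked chromatin is pulled down with a Pol II antibody (clone 8WG16), DNA ends held together are joined through a linker, and a paired-end tag (PET) is read from both sides. Livers were taken at ZT06 (day) or ZT18 (night), where ZT counts hours from lights on, and chromatin of 3 to 7 livers was combined. Of the 8 libraries, experiment 1 contributed 2 per time and the other experiments 1 per time. Crosslinking was by formaldehyde in experiment 2, and by formaldehyde after the longer crosslinker EGS in experiments 1 and 3.

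Each PET carried the name of its experiment and a linker sequence but no library or time, so day and night are not compared here. An experiment is 1 pool of both times, with 474466 PETs between nuclear positions in experiment 1, 1438852 in experiment 2 and 837971 in experiment 3. On average 0.357, 1.08 and 0.630 PET ends fell on each kilobase. Intervals given with values are 95% and cover counting error only. Both ends of a short PET often fall in the same gene, so ends are not fully independent and these intervals are too narrow. Of 5 hepatocyte markers, 4 (Alb, Apoa1, Ttr and Tat) were at least 2-fold above the nuclear mean in every experiment, against 5.02% of all protein-coding genes. The other, Serpina1c, had 6.53, 0.492 and 1.59 times the nuclear mean in experiments 1, 2 and 3. None of the 5 Kupffer cell, 4 endothelial, 4 stellate, 3 lymphocyte and 3 red cell markers was, nor were 4 neuron genes taken as silent. With lists this short, none is near the share of all genes. The medians of these lists lay between 0.426 and 1.63. The part of other liver cells in the values of the 10 genes was not tested. A rarer cell type and less Pol II-bound DNA per cell cannot be told apart in whole liver.

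Immediate-early genes are transcribed within minutes of a stimulus, without new protein synthesis, because their promoters are open and the factors that drive them are already present. Fos, Jun and Junb encode subunits of the dimeric transcription factor AP-1, and Atf3 encodes a related bZIP factor induced by stress. Egr1 and Klf10 encode zinc finger factors, and Ier2 encodes a small nuclear protein. Gadd45b and Gadd45g encode small proteins that act on stress kinases, and Sgk1 encodes a kinase induced by serum and glucocorticoids.

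Promoter sequences are shown first, because the 1 kb stretch with the most PET ends lay near an annotated start in each gene that has one. The RefSeq promoter table (GRCm38.p6) matched 7 of the 10 genes. Egr1, Ier2 and Klf10 were not matched. Each line gives the 250 bases before an annotated start, 5′ to 3′ on the gene's strand. Capitals mark, on either strand, the CRE core TGACGT, bound by CREB and ATF factors, the E-box CACGTG, bound by the clock factors BMAL1 and CLOCK among others, the TATA box letters TATAAA and the CCAAT box letters CCAAT. The Sgk1 lines are the first and the sixth of its 6 listed starts, which are compared further on. Junb and the other Sgk1 starts were searched too, but their lines are not printed.
Fos, chr12:85473640-85473889, plus strand: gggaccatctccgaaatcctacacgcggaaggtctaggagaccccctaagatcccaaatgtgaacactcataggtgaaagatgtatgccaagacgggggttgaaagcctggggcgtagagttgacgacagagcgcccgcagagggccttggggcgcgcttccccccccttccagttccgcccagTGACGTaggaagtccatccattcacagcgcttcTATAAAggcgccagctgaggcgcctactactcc
Jun, chr4:95052223-95052472, minus strand: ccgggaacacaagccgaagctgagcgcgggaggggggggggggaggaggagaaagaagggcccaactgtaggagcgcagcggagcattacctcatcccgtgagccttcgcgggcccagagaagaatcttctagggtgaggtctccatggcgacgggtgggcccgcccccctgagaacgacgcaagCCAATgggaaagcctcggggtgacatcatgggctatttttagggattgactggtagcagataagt
Atf3, chr1:191183334-191183583, minus strand: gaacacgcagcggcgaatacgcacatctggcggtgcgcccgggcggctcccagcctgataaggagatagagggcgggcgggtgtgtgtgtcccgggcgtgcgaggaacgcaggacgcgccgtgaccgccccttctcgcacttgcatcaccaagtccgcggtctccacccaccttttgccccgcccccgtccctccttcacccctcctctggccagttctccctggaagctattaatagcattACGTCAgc
Gadd45b, chr10:80929841-80930090, plus strand: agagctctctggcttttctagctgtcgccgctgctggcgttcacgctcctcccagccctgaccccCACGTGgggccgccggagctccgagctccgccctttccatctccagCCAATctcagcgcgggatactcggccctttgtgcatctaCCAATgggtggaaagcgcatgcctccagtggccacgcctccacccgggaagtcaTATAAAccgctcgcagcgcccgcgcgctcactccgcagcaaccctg
Gadd45g, chr13:51846425-51846674, plus strand: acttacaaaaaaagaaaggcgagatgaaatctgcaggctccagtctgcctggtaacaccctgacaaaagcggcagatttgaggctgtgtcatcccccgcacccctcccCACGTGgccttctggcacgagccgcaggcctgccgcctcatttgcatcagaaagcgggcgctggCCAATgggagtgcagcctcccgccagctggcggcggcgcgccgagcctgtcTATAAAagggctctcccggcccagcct
Sgk1 first start, chr10:21881934-21882183, plus strand: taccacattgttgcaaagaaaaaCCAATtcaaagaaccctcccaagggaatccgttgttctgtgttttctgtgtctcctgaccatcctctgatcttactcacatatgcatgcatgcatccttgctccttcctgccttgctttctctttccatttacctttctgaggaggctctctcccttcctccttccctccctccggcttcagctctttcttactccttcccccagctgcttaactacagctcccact
Sgk1 sixth start, chr10:21994416-21994665, plus strand: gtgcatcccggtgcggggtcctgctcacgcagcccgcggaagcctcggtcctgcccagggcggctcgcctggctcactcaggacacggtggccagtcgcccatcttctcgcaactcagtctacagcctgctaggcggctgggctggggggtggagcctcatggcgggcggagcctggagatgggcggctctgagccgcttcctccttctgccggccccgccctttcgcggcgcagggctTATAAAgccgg

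The letters TGACGT were present in Fos, from 66 to 61 bases before the start, and in Atf3, where they read ACGTCA from 8 to 3 bases before it. They were in 7.37% of the 21263 windows of the same length at protein-coding genes. The E-box was present in Gadd45b, 185 to 180 bases before the start, in Gadd45g, 142 to 137 bases before it, and before the fifth listed start of Sgk1. Of all windows, 6.63% held it. TATAAA was in Fos, Gadd45b, Gadd45g and before 2 Sgk1 starts, the sixth among them, against 11.6% of windows. CCAAT was in Jun, Junb, Gadd45b, Gadd45g and before 2 Sgk1 starts, against 35.4%. The GC box letters GGGCGG, not marked above, were in Fos, Jun, Atf3, Gadd45b and before 2 Sgk1 starts, against 42.6%. The full CRE TGACGTCA, the AP-1 site TGACTCA and the CArG box, bound by SRF, were in none of these windows. They were in 1.92%, 4.06% and 1.39% of all windows. These are matches of letters in a short window and say nothing of whether a factor binds there.

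The density of PET ends was taken over each gene and 2.5 kb either side, per kilobase and relative to the nuclear mean of the same experiment. All 10 genes were above the nuclear mean in every experiment, as were 45% of all protein-coding genes. So were the 4 neuron genes taken as silent, which had 1.29 to 1.42 in experiment 2. Atf3 (1.28) and Sgk1 (1.41) were at about that level there. At least 2-fold density was reached by 9, 7 and 9 of the 10 genes in experiments 1, 2 and 3. Among all protein-coding genes, 27% reached it in experiment 1, 6.03% in experiment 2 and 24.1% in experiment 3. In every experiment together, 7 of the 10 genes reached it (Fos, Jun, Junb, Egr1, Ier2, Gadd45g and Klf10), against 5.02% of all genes. Short genes reached it more often. Of the 8 genes of at most 10 kb, 7 reached it, against 10.3% of all genes of that size. The median relative density of the 10 genes was 13.6, 2.40 and 6.71 in experiments 1, 2 and 3, against 1.19, 1.17 and 1.39 for all genes.

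**Figure D1:**
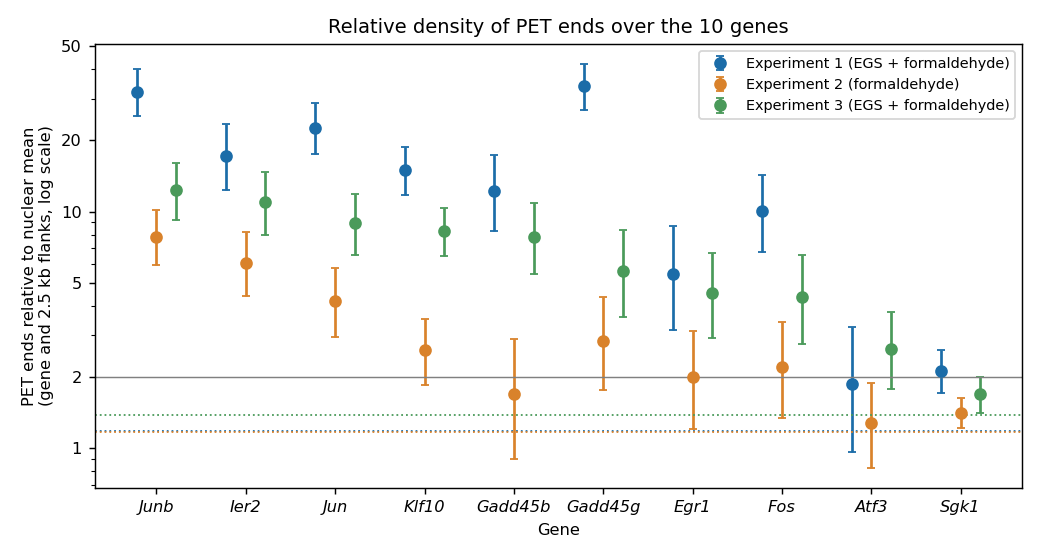
Density of PET ends over each gene and 2.5 kb either side, relative to the nuclear mean (log axis), in each experiment. Bars are exact Poisson 95% intervals, dotted lines the medians of all protein-coding genes, and the grey line marks 2-fold. Experiment 2 was the lowest of the 3 at every gene, and Gadd45g reached 33.8 in experiment 1.

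Among Fos, Jun and Junb, the AP-1 genes of the 10, Junb (chr8:84976909-84978748, 1840 bp) stood highest relative to the nuclear mean. Its window held 78, 58 and 53 PET ends in experiments 1, 2 and 3. These are relative densities of 32.0 (25.3 to 39.9), 7.84 (5.95 to 10.1) and 12.3 (9.22 to 16.1). Only 60, 31 and 34 of all protein-coding genes lay above it in experiments 1, 2 and 3. Prdx2, a peroxiredoxin gene, ends 2.10 kb from Junb, on the side away from the Junb start, and its last bases fall inside the window. With 1 kb flanks, which leave Prdx2 out, Junb had 48.9, 11.6 and 17.8. Against the density 25 to 100 kb away on both sides, Junb had 8.51, 4.91 and 5.10, so its surroundings were above the nuclear mean too. On that reference Jun had 19.2, 3.55 and 8.03, and Fos had 9.42, 2.17 and 3.21. Junb then led these genes in experiment 2 only, and was below both in experiment 1.

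Jun (chr4:95049036-95052222, 3187 bp) had 66, 37 and 46 ends in experiments 1, 2 and 3. Its relative densities were 22.6 (17.5 to 28.8), 4.18 (2.94 to 5.76) and 8.92 (6.53 to 11.9). The lncRNA gene Junos also overlaps its window, and PET ends carry no strand that could separate the pair. Fos (chr12:85473890-85477274, 3385 bp), the usual partner of Jun in AP-1, was lower, with 30, 20 and 23 ends. Its relative densities were 10.0 (6.77 to 14.3), 2.21 (1.35 to 3.41) and 4.36 (2.76 to 6.54). Relative to the nuclear mean, the interval of Fos lay below that of Junb in every experiment and below that of Jun in experiment 1. In experiment 3 those of Fos and Jun just touched. The stress factor gene Atf3 (chr1:191170296-191183333, 13038 bp) had 12, 25 and 30 ends, or 1.87 (0.964 to 3.26), 1.28 (0.829 to 1.89) and 2.64 (1.78 to 3.77). Its intervals in experiments 1 and 2 included the nuclear mean.

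Ier2 (chr8:84661331-84662852, 1522 bp) followed Junb in experiments 2 and 3. It had 40, 43 and 45 ends, or 17.2 (12.3 to 23.4), 6.10 (4.41 to 8.21) and 11.0 (7.99 to 14.7). Klf10 (chr15:38291464-38300711, 9248 bp), a TGF-beta responsive factor gene, had 76, 40 and 74 ends, or 15.0 (11.8 to 18.7), 2.60 (1.85 to 3.54) and 8.25 (6.48 to 10.4). The lncRNA gene Gm35248 overlaps the Klf10 window. Egr1 (chr18:34861207-34864956, 3750 bp) had 17, 19 and 25 ends, or 5.45 (3.17 to 8.72), 2.01 (1.21 to 3.14) and 4.54 (2.94 to 6.70). Egr1 was thus at the 2-fold line in experiment 2, with an interval on both sides of it, and fell under it there against the surrounding 25 to 100 kb, at 1.67.

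The Gadd45 genes differed most between experiments. Gadd45g (chr13:51846675-51848475, 1801 bp) had 82, 21 and 24 ends in experiments 1, 2 and 3. Its relative densities were 33.8 (26.9 to 42.0), 2.86 (1.77 to 4.37) and 5.60 (3.59 to 8.34), so that it had rank 1 of the 10 in experiment 1, 4 in experiment 2 and 6 in experiment 3. Gadd45b (chr10:80930091-80932204, 2114 bp) had 31, 13 and 35 ends, or 12.2 (8.30 to 17.3), 1.69 (0.900 to 2.89) and 7.81 (5.44 to 10.9). It was high in both dual-crosslinked pools and within counting error of the nuclear mean in experiment 2.

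Ordered by density, neighbouring genes had overlapping intervals in each experiment, apart from the step from Egr1 to Sgk1 in experiment 1. Junb, Ier2 and Jun led, in that order, in experiments 2 and 3. In experiment 1 Gadd45g and Junb led, with overlapping intervals. Atf3 and Sgk1 were the lowest pair in every experiment, and they are also the longest of the 10 genes.

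The ratio of relative densities in experiment 1 to experiment 2 was above 1 for all 10 genes, with a median of 4.31 (range 1.46 to 11.8), against a median of 1.20 over 19942 genes with ends in both, of which 61.3% were above 1. From experiment 3 to experiment 2 it was also above 1 for all 10, with a median of 2.02 against 1.26, and 70% of 20349 genes were. Gadd45g had 11.8 (7.26 to 20.1) from experiment 1 to 2, and Gadd45b had 7.23 (3.68 to 15.1). From experiment 1 to experiment 3, pools with the same crosslinkers, the median was 1.69 against 1.01, and 9 of the 10 genes were above 1, against 50.4% of 19809 genes. Gadd45g had 6.03 there (3.79 to 9.95), whereas Atf3 had 0.706 (0.329 to 1.42) and Egr1 had 1.20 (0.609 to 2.31). Higher values in experiment 1 than in experiment 2 were not particular to the 10 genes. The 5 hepatocyte markers had medians of 74.4 and 9.05 in these experiments. The 34 other early-response factors described further on had 8.60 and 2.39, whereas the 4 neuron genes had 1.08 and 1.36. Crosslinking and experiment cannot be told apart, since formaldehyde alone was used in 1 experiment, and the difference between crosslinkers was not tested.

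Within an experiment, the linker sequence divides PETs into subsets, but the sources do not tie a linker to a library or time. In experiment 2 the median relative density of the 10 genes was 4.35 with the ATGT linker and 2.24 with the TAAG linker, while that of all genes was 1.17 and 1.14. Gadd45b had 8 ends with ATGT and 5 with TAAG, although TAAG had 1109337 PETs and ATGT had 329515. These are 4.54 (1.96 to 8.95) and 0.843 (0.274 to 1.97), intervals that just meet. Egr1 had 4.15 (1.90 to 7.88) and 1.37 (0.657 to 2.52), with overlapping intervals. In experiment 1 the medians were 12.2 and 13.4, and in experiment 3 they were 6.94 and 5.43. Ier2 was higher with ATGT in experiment 1, at 24.2 (15.3 to 36.2) against 12.4 (7.21 to 19.8), and Gadd45b higher with TAAG, at 15.4 (9.73 to 23.0) against 7.70 (3.33 to 15.2). These intervals overlapped.

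**Figure D2:**
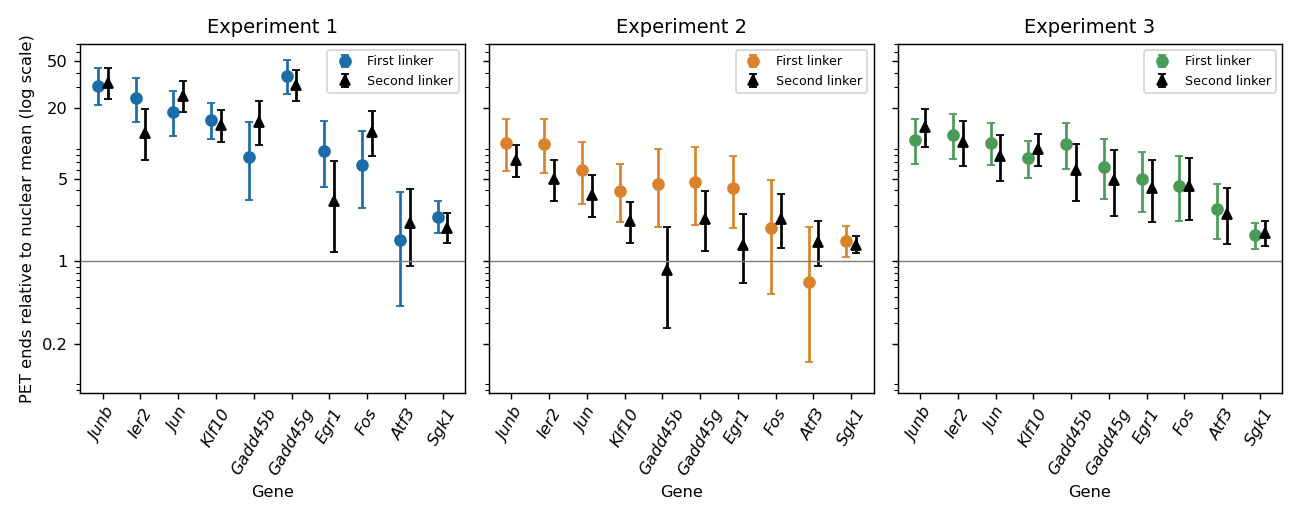
Relative density of PET ends (log axis) over each gene and 2.5 kb either side, for PETs of each linker, ATGT (circles, first) and TAAG (triangles, second), by experiment. Bars are exact Poisson 95% intervals, and the linkers part most in experiment 2, where Gadd45b had 4.54 and 0.843.

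Promoter side and body were then compared in the 7 genes with a listed start. The promoter side ran from 2.5 kb before to 0.5 kb after the outermost start, and the body from there to the end of the gene. This promoter window has the same length in every gene. Its relative density was at least 2-fold in 6 of the 7 genes in each experiment, all but Sgk1. Of 17492 genes with a start, 45.9%, 30.8% and 52.3% reached this in experiments 1, 2 and 3, and 23.6% did in every experiment. The median of the 7 genes was 24.3, 4.32 and 8.998, against 1.87, 1.23 and 2.12 for all genes with a start. The median of the bodies was 6.26, 1.60 and 5.90, against 1.03, 1.10 and 1.29 over 16100 genes with a body of at least 0.5 kb.

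Each gene's promoter side was set against its own body by a two-sided exact binomial test on 1 end of each PET of at most 8 kb and both ends of the others. P-values were adjusted by Benjamini-Hochberg over the 16100 genes. Promoter side was above body in 3 of the 7 genes in experiment 1 (23% of all genes), 2 in experiment 2 (9.08%) and 1 in experiment 3 (18%). Body was above promoter side in none of the 7, against 0.416%, 0.106% and 0.224% of all genes. With 7 genes these counts are too few to set apart from the background, and several bodies held under 10 ends. At an unadjusted p under 0.05, 4, 2 and 2 of the 7 genes had the higher density on the promoter side, against 29.5%, 17.2% and 26.9% of all genes.

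Jun passed in experiments 1 and 2. In experiment 1, 52 ends lay on the promoter side and 6 in the 2.69 kb of the body, relative densities of 48.6 (36.3 to 63.7) and 6.26 (2.30 to 13.6). The density ratio in the tested ends was 7.17 (2.83 to 23.3, exact binomial test, adjusted p = 7.98e-06). In experiment 2 it had 32 and 4 ends. The ratio in the tested ends, 26 and 4, was 5.82 (2.02 to 23.0, exact binomial test, adjusted p = 0.00346). In experiment 3 it had 29 ends on the promoter side and 16 in the body, more body ends than in experiments 1 and 2. The ratio in the tested ends, 25 and 12, was 1.87 (0.903 to 4.08, exact binomial test, adjusted p = 0.297).

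Atf3 was denser at its start than along its body, although its whole window was within counting error of the nuclear mean in experiments 1 and 2. The promoter side held 6, 14 and 13 ends in experiments 1, 2 and 3, or 5.61 (2.06 to 12.2), 4.32 (2.36 to 7.24) and 6.88 (3.66 to 11.8) relative to the mean. The 12.5 kb of its body held 4, 10 and 16 ends, or 0.895, 0.738 and 2.03. Promoter side exceeded body in every experiment by the exact binomial test. The ratios in the tested ends were 6.97 (exact binomial test, adjusted p = 0.0397), 5.43 (adjusted p = 0.00221) and 3.13 (adjusted p = 0.0364). With PETs between chromosomes only, Atf3 passed in experiments 1 and 2 (exact binomial test, adjusted p = 0.0406 and 0.00669). In experiment 3 it did not (ratio 3.06, 1.27 to 7.14, exact binomial test, adjusted p = 0.0663). Jun in experiment 2 had a ratio of 4.48 (1.5002 to 18.02) in these PETs and did not pass (exact binomial test, adjusted p = 0.0623).

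Fos passed in experiment 1, with 26 promoter-side ends against 3 in the body. The tested ends were 17 against 3, a ratio of 5.45 (1.58 to 29.0, exact binomial test, adjusted p = 0.0144). It had 12 against 5 ends in experiment 2 and 17 against 5 in experiment 3. The tested ends, 9 against 4 and 13 against 5, did not pass (exact binomial test, adjusted p = 0.701 and 0.295). With PETs between chromosomes only, Fos in experiment 1 had 9 against 1 end, a ratio of 8.66 (1.20 to 379), and did not pass (exact binomial test, adjusted p = 0.112). Junb there had 28 against 2, a ratio of 6.25 (1.58 to 54.2), and passed (exact binomial test, adjusted p = 0.0204). In these PETs 3, 1 and 0 of the 7 genes passed in experiments 1, 2 and 3, against 15.2%, 4.74% and 13.1% of all genes. Over all PETs, Junb, Gadd45b and Gadd45g did not pass in any experiment. The Junb and Gadd45g bodies were themselves dense in experiments 1 and 3. Gadd45g had 49 promoter-side ends and 20 in its 1.30 kb body in experiment 1, relative densities of 45.8 (33.9 to 60.6) and 43.1 (26.3 to 66.6). Junb had 46.7 on the promoter side and 14.7 (5.89 to 30.2) in the body in experiment 1, 9.56 and 6.90 in experiment 2, and 16.9 and 14.2 in experiment 3. Gadd45b had 23.4 and 10.4, 3.08 and 1.72, and 12.7 and 5.90.

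**Figure D3:**
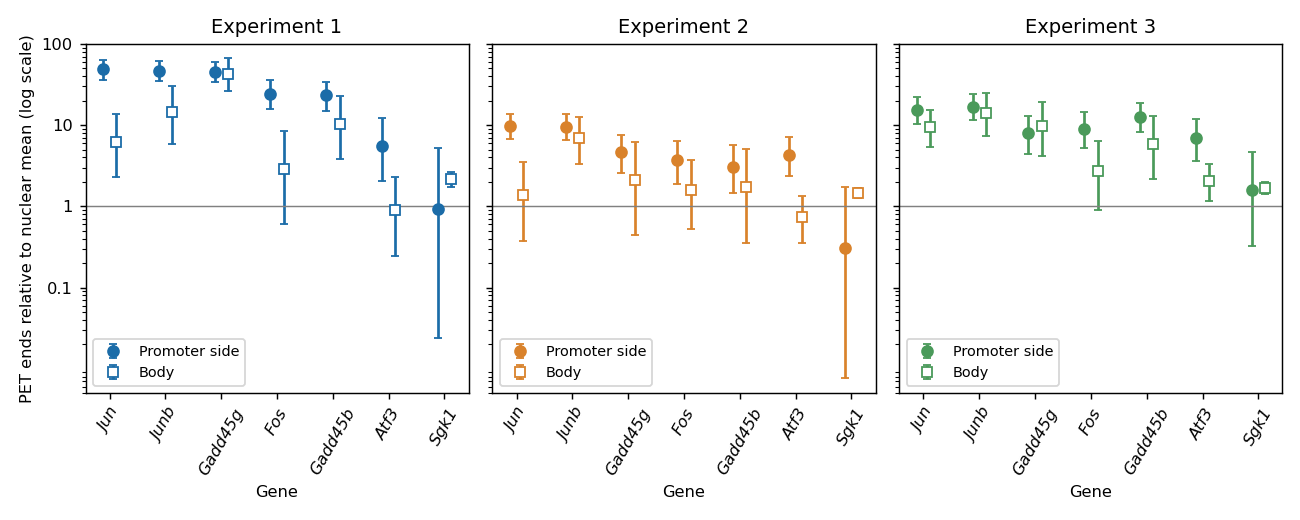
Relative density of PET ends (log axis) on the promoter side (filled) and in the body (open) of the 7 genes with a listed start, by experiment, with exact Poisson 95% intervals. Jun in experiment 1 stands at 48.6 and 6.26, and Fos at 24.3 and 2.92, and the lower limits of Sgk1 promoter sides reach far down because 1 to 3 ends were counted.

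The promoter window reaches 2.5 kb upstream, and most of its ends lay close to the start. The 1 kb stretch with the most ends was centred within 0.5 kb of the start in every experiment for Fos, Jun, Junb, Atf3, Gadd45b and Gadd45g. This stretch held 20 of the 30 Fos ends in experiment 1, 10 of 20 in experiment 2 and 15 of 23 in experiment 3. For Jun it held 47 of 66, 24 of 37 and 21 of 46. With a promoter side from 1 kb before the start, 5, 2 and 4 of the 7 genes passed the exact test in experiments 1, 2 and 3, against 29.1%, 15.3% and 26.4% of all genes. Fos, Jun, Atf3 and Gadd45b then passed in both experiments 1 and 3. Averaged over the 7 genes, density in the 250 bp before the start was 84.9, 14.3 and 43.6 in experiments 1, 2 and 3. In the 250 bp after it, density was 107, 19.6 and 31.8. All genes with a start averaged 14.9, 3.96 and 7.67 there.

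**Figure D4:**
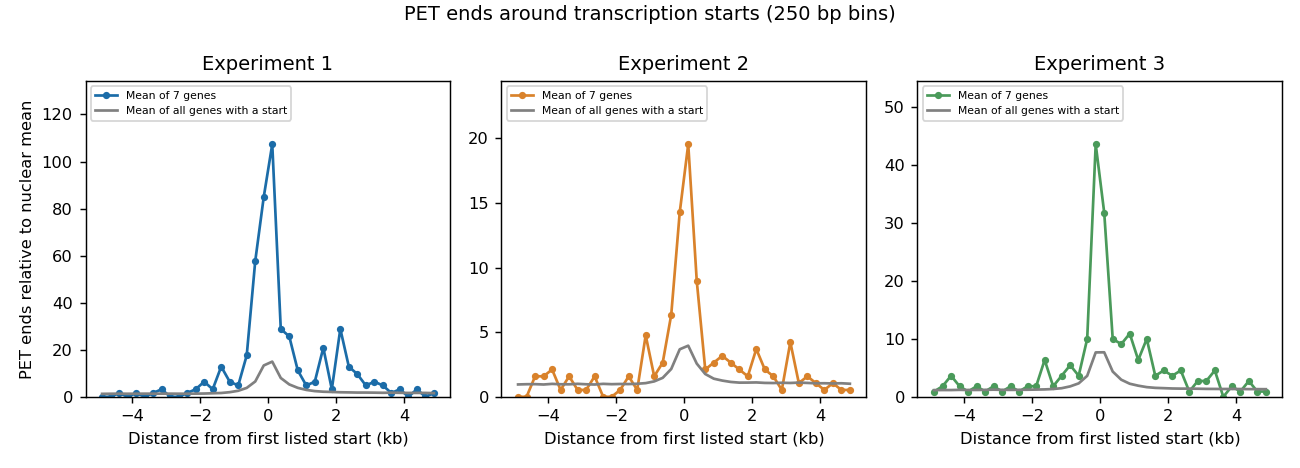
Mean relative density of PET ends in 250 bp bins from 5 kb before to 5 kb after the outermost listed start, for the 7 genes (coloured) and all 17492 genes with a start (grey), by experiment. The vertical scale differs between panels. Each line peaks at the start, at 107 for the 7 genes in experiment 1.

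The 3 genes without a listed start were divided by coordinate alone, into 3 kb around either boundary (2.5 kb outside and 0.5 kb inside) and the part between. Klf10 had 34, 22 and 45 ends around its higher-coordinate boundary in experiments 1, 2 and 3, and 3, 3 and 5 around the lower one. The higher boundary was thus the dense one in every experiment. Egr1 had 12, 4 and 15 around its lower-coordinate boundary and 3, 6 and 4 around the higher one, so its larger side was the lower one in experiments 1 and 3 only. Ier2 had 20, 30 and 32 around the higher-coordinate boundary and 16, 10 and 9 around the lower one, closest to even in experiment 1.

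Sgk1 (chr10:21882184-21999903) was different. Over its 117720 bp and 2.5 kb either side it had 93, 187 and 131 ends. Its relative densities were only 2.13 (1.72 to 2.60), 1.41 (1.21 to 1.63) and 1.70 (1.42 to 2.01). The lncRNA gene Gm46215 and the pseudogene Gm18511 overlap this window. The outermost Sgk1 start was within counting error of the nuclear mean in every experiment, with 1, 1 and 3 ends on the promoter side. These are 0.935 (0.0237 to 5.21), 0.308 (0.0078 to 1.72) and 1.59 (0.327 to 4.64) relative to the mean. The table lists 6 starts, the last 112.5 kb after the first. The 1 kb around the sixth start held 28 of the 93 ends, 19 of the 187 and 21 of the 131 in experiments 1, 2 and 3, or 78.5 (52.2 to 113), 17.6 (10.6 to 27.4) and 33.3 (20.6 to 51.0) relative to the mean. The start 110 kb in held 6, 3 and 2 ends, or 16.8 (6.18 to 36.6) in experiment 1, and the one 111.7 kb in held 7, 5 and 2. The first 3 starts held 0 to 2 in each experiment.

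A window from 2.5 kb before the fifth start to 2.5 kb past the gene's end, 11.0 kb long and chosen after these values were seen, had 11.2 (8.14 to 15.0), 2.69 (1.84 to 3.79) and 6.49 (4.73 to 8.68). The window was placed where ends had been seen to gather, so its values cannot be compared with the whole-gene densities of the other genes. When the windows of all listed starts were merged, an alternative also chosen after seeing the data, Sgk1 passed the exact binomial test for promoter side above body in every experiment (adjusted p = 2.13e-10, 0.000816 and 3.65e-06). With these windows 4, 3 and 2 of the 7 genes passed, against 24%, 9.53% and 18.7% of all genes. The sequences before the first and sixth starts, printed above, differ in base composition, with 48.4% and 70.4% G or C. The other 4 Sgk1 windows had 43.6 to 46.4%, against a median of 55.6% over all windows.

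**Figure D5:**
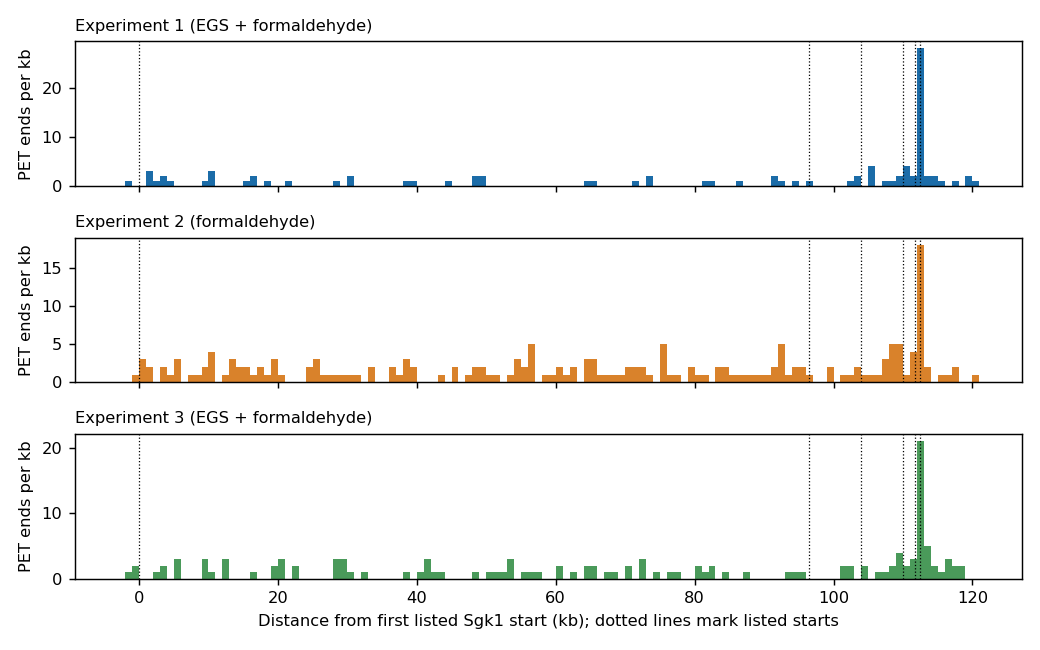
PET ends in 1 kb bins along Sgk1, by distance from its first listed start, in each experiment. Dotted lines mark the 6 listed starts, and the tallest bin in each experiment is at the sixth, with 28, 18 and 21 ends.

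The kinds of PET were then examined. PETs with an end in the 10 windows numbered 407, 412 and 410. Their 2 ends lay at most 8 kb apart in 29.2% (24.9 to 33.9%), 12.4% (9.36 to 16.0%) and 18.5% (14.9 to 22.6%). Over all nuclear PETs these shares were 22.5%, 6.23% and 14.8%. A PET with distant ends has 2 chances to touch a window, whereas a short PET has little more than 1. The shares over all nuclear PETs count each PET once, so they are too high as a background for the windows. Gadd45g had the highest share in experiment 1, 43.9% (30.7 to 57.6%) of 57 PETs. PETs between chromosomes made up 68.1%, 84.2% and 75.9% for the 10 genes. Counted by ends, on another basis, such PETs held 693666 of 948932 nuclear ends in experiment 1. They held 2551742 of 2877704 in experiment 2 and 1344406 of 1675942 in experiment 3. Counted from PETs between chromosomes only, the median relative density of the 10 genes was 9.70, 1.91 and 5.11, and that of Gadd45g in experiment 1 was 17.5. Fos and Egr1 then fell out of the genes at 2-fold in every experiment.

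The far ends of PETs between chromosomes lay within 2.5 kb of a protein-coding gene boundary in 19.9% (15.3 to 25.05%) of 277 in experiment 1, 11.0% (7.87 to 14.7%) of 347 in experiment 2 and 12.2% (8.79 to 16.4%) of 311 in experiment 3. All ends of such PETs did so in 15.0%, 8.19% and 12.2%. The difference was near the edge of counting error in experiment 1 and not detectable in the others. No PET joined any 2 of the 10 genes.

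On the same chromosome, 48 PETs over 8 kb had 1 end in a window of the 10 genes, of which 42 reached beyond 1 Mb. The other 6 were contacts of 8 kb to 1 Mb, carried by 3 genes, Klf10, Gadd45g and Gadd45b. Among all protein-coding genes, 22.3% had at least 1. For every 1000 PET ends the 10 genes had 4.07 contacts (1.49 to 8.86), against 2.18 for all genes, so no difference was detectable at this depth. The remaining 7 genes, AP-1 genes included, had none.

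Klf10 had 3 of the 6, all in experiment 3 with the TAAG linker. The nearer 2 far ends lay within 1 kb of each other, at chromosome 15 positions 38469977 and 38470788, 168.8 and 171.6 kb away. No protein-coding gene lies between or at these points. The nearest, Azin1, an inhibitor of antizyme in polyamine metabolism, is 17.5 and 16.6 kb beyond them. The last far end, at 38702478, was 401.7 kb away, 10.0 kb from Atp6v1c1, a proton pump subunit gene. Their near ends were at 38301195 and 38300738, just past the higher-coordinate boundary of Klf10, and at 38299155, inside the gene.

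Gadd45g had 1 contact in experiment 1, of 219.7 kb to chromosome 13 position 52068081, and 1 in experiment 2, of 72.4 kb to 51918891. Both far ends lay outside any annotated gene, with Gadd45g itself the nearest protein-coding gene. Gadd45b had 1 contact in experiment 3, of 59.0 kb, from -0.942 kb relative to its start to chromosome 10 position 80988196, within Gng7, a G protein gamma subunit gene. Apart from the pair at Klf10, no 2 of these contacts met at the same place, and no contact was seen in more than 1 experiment. Of the 42 PETs beyond 1 Mb, 22 were from Sgk1, the longest window.

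A wider list of 42 early-response genes and their regulators was chosen with earlier results of these data known. Of its 34 early-response factors, 19 were at least 2-fold above the nuclear mean in every experiment, against the 5.02% of all genes given above. Their median was 8.60, 2.39 and 4.16 in experiments 1, 2 and 3. None of the 8 upstream regulators reached it in every experiment, among them Srf and Creb1, whose proteins act on early-response promoters, and the MAP kinase genes. With a list of 8 genes, this count cannot be set apart from the 5.02% of all genes. Elk4 and Srf missed it in experiment 2 only, with 1.94 and 1.41. The median of the regulators was 1.78, 1.08 and 1.77. None of the 42 was below the mean in every experiment, against 16.5% of all genes.

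Within the wider list, Zfp36, which encodes an mRNA decay factor, had 59.1 (50.3 to 69.2), 9.32 and 19.2. Cebpb, a bZIP factor gene of liver, had 52.1 (43.2 to 62.2), 13.1 and 17.8. Dusp1, which encodes a MAP kinase phosphatase, had 36.3, 8.45 and 14.3. Of the other AP-1 genes, Jund had 36.0 (29.3 to 43.7), 7.28 (5.58 to 9.33) and 16.5 (13.1 to 20.5), with intervals that overlapped those of Junb in every experiment. Fosb had 1.35, 0.596 and 1.92, Fosl1 3.81, 1.12 and 3.00, and Fosl2 2.55, 1.44 and 2.41. The stress factor gene Atf4 had 45.3, 7.54 and 14.2 and its target Ddit3 had 24.3, 3.08 and 6.35. Gadd45a, the other Gadd45 gene, had 8.44, 1.90 and 4.56. The remaining genes of the list at 2-fold in every experiment were Ier5, Klf2, Klf6, Klf9, Dusp6, Btg1, Btg2, Myc, Trib1, Cebpd, Mcl1, Socs3 and Nfkbia.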

How the data were processed

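Pol II ChIA-PET libraries of mouse liver were given as 1 deposited table of PETs with the position of each end, which the authors made for all libraries together. Per the submitters' processing notes, reads were aligned with Bowtie2 to mm10. The sources name no duplicate removal or filter. The table names the experiment and linker of a PET but no library or time, so the planned day against night test was not run. The genes and lists were chosen with earlier results of these data known.

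PETs with a mitochondrial end were set aside. Ends were counted over spans of RefSeq genes (GRCm38.p6, the same chromosomes as mm10) and divided by length and by the nuclear mean. Exact Poisson or binomial (Clopper-Pearson) 95% intervals were taken. Promoter side and body were compared by exact binomial tests with Benjamini-Hochberg adjustment, a procedure tested on simulated data. Genes with several starts took the outermost. Named were all 10 genes, list genes at 2-fold in every experiment, genes overlapping a window, every contact of 8 kb to 1 Mb and the 3 closest genes. Other genes, and the examples of low list genes, were named after their values were seen. Python 3.11.15, numpy 2.4.6, pandas 2.3.3 and scipy 1.17.1 were used.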

Additional observations from a re-analysis of the deposited data

How the results depend on the processing

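Of 72 alternative values for the counts and medians, 54 stayed within 1.5 times a count or within the counting interval, 18 moved and 0 turned direction. For single genes, 150 of 210 stayed, 60 moved, and none whose interval excluded the nuclear mean crossed it. Values of 2 genes whose intervals included it did cross it in experiment 2, Atf3 from 1.28 to 0.672 with the ATGT linker and Gadd45b from 1.69 to 0.843 with the TAAG linker. No paired analysis was possible because the table names no library or replicate. Jun, Junb, Ier2 and Klf10 were at least 2-fold in every experiment under all settings of flank, reference, linker and PET kind, and 5 to 8 of the 10 genes were. The median over the 10 genes moved with 1 kb flanks to 19.7 in experiment 1 and 9.25 in experiment 3, with 5 kb flanks to 9.20 and 4.38, and with the local reference to 8.96 and 4.05. With PETs between chromosomes only it moved to 9.70 and 5.11, and with the ATGT linker to 4.35 in experiment 2. The promoter-side median rose to 46.7, 8.01 and 15.9 in experiments 1, 2 and 3 when the window began 1 kb before the start. The genes with promoter side above body were then 5 in experiment 1 and 4 in experiment 3 (29.1% and 26.4% of all genes). They were 1 in experiment 2 and 0 in experiment 3 with PETs between chromosomes only (4.74% and 13.1% of all genes), by the exact binomial test, with Jun and Atf3 at an unadjusted p under 0.05 in experiment 3. They were 2 in experiment 3 with every listed start, an alternative chosen after seeing the data. The cause was not tested. Leaving out 1 experiment gave 7 to 8 genes at 2-fold in the rest, and 2 to 5 contacts, with 2 contacts left without experiment 3. Collapsing near-duplicate PETs within 2 bp removed 9157 PETs in experiment 1, 11 in experiment 2 and 175 in experiment 3 and left the number of the 10 genes at 2-fold, of contacts and of genes with promoter side above body as they were. With 12 to 93 ends a gene in experiment 1, differences under about the width of the intervals cannot be seen.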

Other observations

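The protein-coding genes whose densities over the 3 experiments were closest to the median of the 10 genes, by summed absolute difference of log2(relative density + 0.25), were Bbc3, Sco2 and Zyx. Bbc3, which encodes the cell death protein PUMA, had relative densities of 13.5, 2.35 and 6.59 in experiments 1, 2 and 3, a summed difference of 0.03. Sco2, a cytochrome oxidase assembly gene, had 12.7, 2.29 and 6.56 (0.15), and Zyx, which encodes the focal adhesion protein zyxin, had 13.6, 2.53 and 6.27 (0.15). With 3 values a gene, this likeness is only a description of these pools.

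PETs with a mitochondrial end, which were in no comparison, numbered 12, 14 and 2239 in experiments 1, 2 and 3. None of them had its other end in a window of the 10 genes, and a count of 0 allows up to 3.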
